A study of Mus musculus with 12 samples.

Results

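The inflammation-linked miRNAs miR-155, miR-146 and miR-223 were followed across genotype and status epilepticus in mouse hippocampus. Every assay of the panel that carries the name miR-155, miR-146 or miR-223 was taken, whatever its letter, strand mark or species prefix, which gave 7 of the 619 miRNA assays. They were 1 assay of miR-155, 1 of miR-146a, 2 of miR-146b named after human and rat sequences, 1 of the passenger strand miR-146b#, and 2 of miR-223 that both carry a human name. The miR-223 assay with the lower Ct (hsa-miR-223_000526) is called the early line below and the other (hsa-miR-223_002295) the late line. A Ct below 28 in all 12 samples, the condition for entering the comparisons, was met by 335 of the 619 assays and by 6 of these 7. The exception was miR-146a, for which 1 sample has no Ct. It was analyzed on the other 11 samples.

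The 12 samples fall into 4 groups of 3. Vehicle-injected wild-type mice (wt control), P2rx7-/- mice given vehicle (P2rx7-/- control), wt mice after status epilepticus (wt post-SE) and P2rx7-/- mice after status epilepticus (P2rx7-/- post-SE) were compared to learn whether the P2X7 receptor shapes the miRNA response to seizures. All mice were C57BL/6, with a labelled age of 8 weeks, and the P2rx7-/- line lacks exon 2 of P2rx7. The methods give an age range that extends above the labelled age, so that the ages of single mice are not known here. Status epilepticus was triggered with 0.3 μg kainic acid (KA), a glutamate receptor agonist, injected into the amygdala. All groups, controls included, received the anticonvulsant lorazepam at 6 mg/kg. The hippocampus of the injected side was taken 8 h after the injection, and each sample pooled 2 hippocampi from different mice, so that the p-values below measure the spread between pools. The panel holds no assay of P2rx7, and the genotype labels could therefore not be checked against these data.

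MiR-155 is cut from a transcript that Toll-like receptor and NF-κB signaling switches on in macrophages and microglia, and it represses brakes on inflammation such as Socs1. MiR-146a and miR-146b are induced by the same pathway and act as its negative feedback by repressing the adaptors Irak1 and Traf6. MiR-223 is abundant in neutrophils and monocytes and represses Nlrp3, the sensor of the inflammasome that the P2X7 receptor, an ATP-gated channel found mainly on microglia in brain, can activate.

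The mature mouse strands that correspond to the assays by name are shown because the first 2 share a seed and are told apart by few bases, and because the assays of miR-146b and miR-223 are repeated lines for 1 strand each. Sequences are from RefSeq (GRCm38.p6), 5′ to 3′, with the seed (bases 2 to 8) in capitals. The target sequences of the assays themselves were not used here, so that each assay was matched to a strand by its name alone.
mmu-miR-146a-5p: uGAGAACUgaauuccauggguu
mmu-miR-146b-5p: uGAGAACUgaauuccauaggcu
mmu-miR-146b-3p: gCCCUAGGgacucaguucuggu
mmu-miR-155-5p: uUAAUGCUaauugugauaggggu
mmu-miR-223-3p: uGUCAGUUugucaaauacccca

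MiR-146a-5p lies at chr11:43374435-43374456 on the minus strand, within the miRNA gene Mir146, and overlaps no other gene of the annotation. Both strands of miR-146b come from Mir146b, at chr19:46342790-46342811 for the 5p and chr19:46342828-46342849 for the 3p strand, on the plus strand, inside the long non-coding gene Gm36493. MiR-155-5p lies at chr16:84714143-84714165 on the plus strand, inside its host transcript Mir155hg, a long non-coding RNA. MiR-223-3p lies at chrX:96242884-96242905 on the plus strand, inside the long non-coding gene F630028O10Rik. Counted from 1 at the 5′ end, miR-146a-5p and miR-146b-5p agree at 20 of 22 positions and differ by G18A and U21C, both outside the seed. Of the 1679 mature miRNA names in the table, none besides this pair carries their seed, and no other name shares the seed of miR-155-5p, miR-223-3p or miR-146b-3p.

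The readout was the threshold cycle (Ct) of each assay, which falls by about 1 cycle for each doubling of the miRNA. The level used below is −ΔCt, the mean Ct of the 335 common assays in a sample minus the Ct of the assay, on a log2 scale, so that 0 is the level of an average assay. Fold changes (FC) are relative to the mean ΔCt of the reference group, and an average FC above 1.5 was taken as up and one below 0.6 as down, the thresholds that the methods name. These thresholds are no test, and the ± given with an average FC is the SD of its 3 FCs, without the spread of the reference group. Tests were made with limma over all assays with Benjamini-Hochberg adjustment, and with an exact two-sided permutation test of 3 samples against 3 (3 against 2 where miR-146a in wt controls was involved), which cannot give a p below 0.1.

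Between 470 and 538 of the 619 miRNA assays had a Ct in a sample. Wt control replicate 1 stood apart from the other samples, with Spearman correlations of 0.660 to 0.737 to them over the common assays, against 0.872 to 0.989 among the other 11. In it, 72 of the 335 assays lay more than 2 cycles from their median over samples, against 3 to 28 in the others. It is also the sample without a Ct of miR-146a. Of the neuronal markers, miR-128a, miR-137 and the passenger strand miR-138# were detected in all samples. Their summed linear level, in which 1 is the level of an average assay, was 24.5 to 51.0 in wt control, 41.1 to 57.2 in P2rx7-/- control, 42.3 to 75.1 in wt post-SE and 44.4 to 80.1 in P2rx7-/- post-SE samples, and the lowest value belonged to wt control replicate 1. MiR-124a, the most used neuronal marker, had a Ct in 11 samples and the endothelial miR-126 in 10. The summed level of oligodendrocyte markers (4 of 6 assays detected in all samples) was 6.36 to 9.18 in wt control and 3.63 to 5.875 in P2rx7-/- control samples. It was 4.85 to 8.31 in wt post-SE and 4.77 to 19.4 in P2rx7-/- post-SE samples. Of 4 mural cell assays only miR-145 was detected in all samples. Its level was 3.83 to 34.9 in wt control, 27.6 to 44.8 in P2rx7-/- control, 29.7 to 245 in wt post-SE and 26.6 to 62.5 in P2rx7-/- post-SE samples. Whether these markers bear on the differences between genotypes was not tested. As the tissue is whole hippocampus, fewer cells of a type and less RNA per cell cannot be told apart.

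By signal, these miRNAs spanned most of the range of the panel. The mean Ct over samples was 12.7 for miR-146a (11 samples), 13.6 and 16.1 for the early and late lines of miR-223, 14.1 for the human and 15.1 for the rat line of miR-146b, and 17.8 for miR-155. The passenger strand miR-146b# came up last, at 24.1. Among the 335 assays ordered from the lowest mean Ct, the early miR-223 line was at place 20 and the human miR-146b line at place 28, miR-155 at place 130 and miR-146b# at place 317. As assays differ in how efficiently they amplify, this order is one of signal and not of copies.

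Among the common assays of the list, miR-155 had the largest spread between samples of 1 group. Its within-group SD, pooled over the 4 groups, was 1.87 on the log2 scale, larger than that of 89.3% of the 335 assays. The other 5 common assays had SDs of 0.481 to 0.790, near the median over all assays of 0.636. The pooled value of miR-155 rested largely on P2rx7-/- controls, whose SD was 3.29 through replicate 3. Wt controls had an SD of only 0.43. Post-SE samples had SDs of 1.18 (wt) and 1.24 (P2rx7-/-), above those of the other 5 assays within the same groups.

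**Figure D1:**
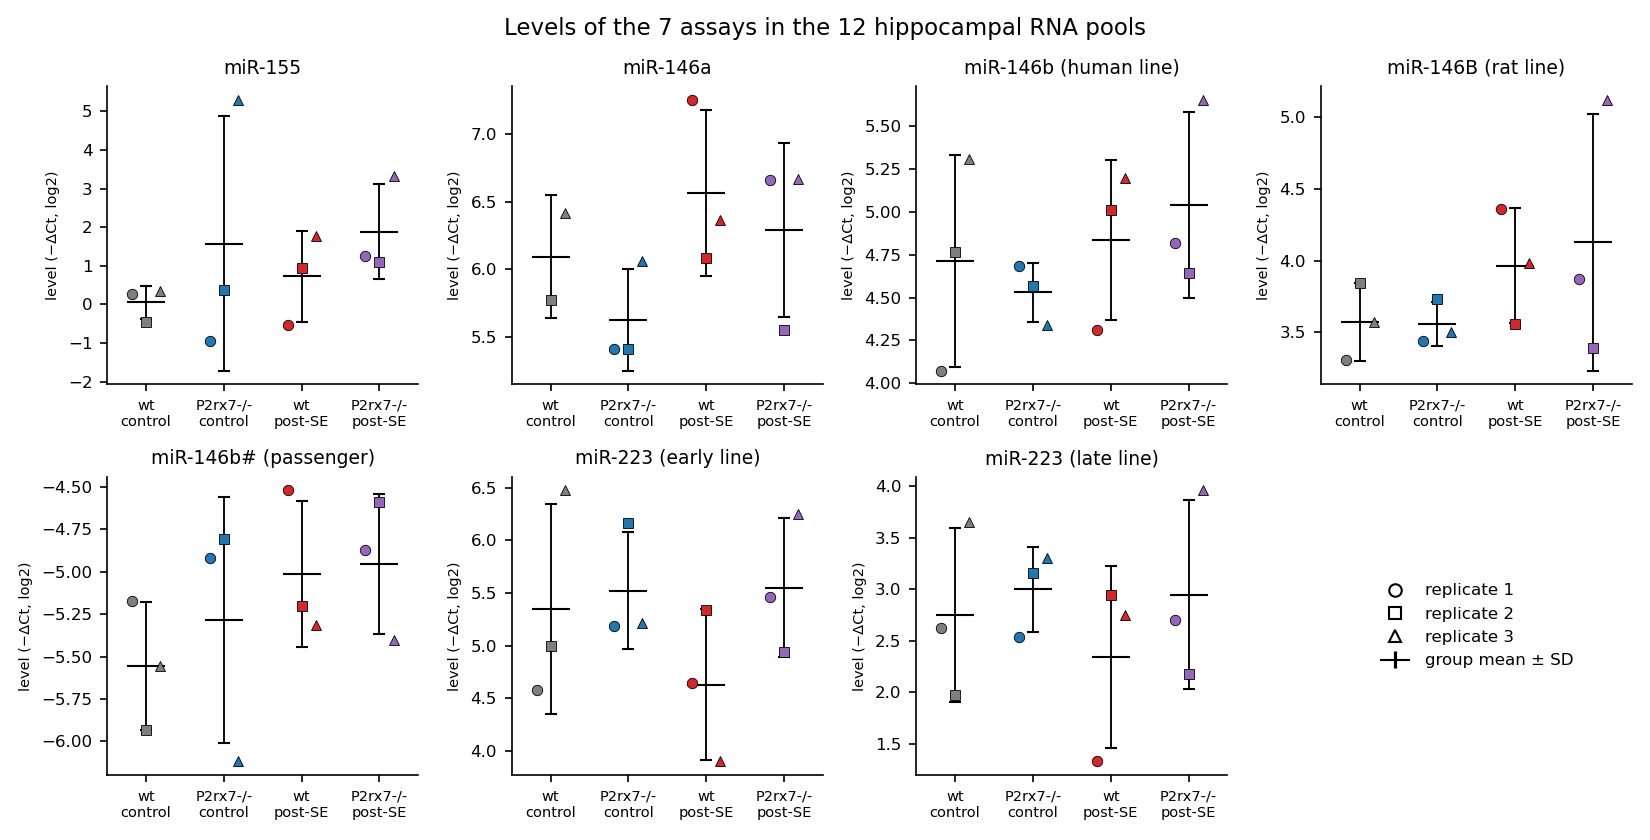
Level (−ΔCt, log2 scale) of each of the 7 assays in each sample, by group; symbols mark replicates, and the black line and bars give the group mean ± SD (n = 3, or 2 for miR-146a in wt control). Within each of the 4 comparisons the groups overlap for all assays, and miR-155 in P2rx7-/- control replicate 3, at 5.31, lies farthest from the samples of its group.

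None of the 7 assays passed limma in any of the 4 comparisons, and their adjusted p-values ran from 0.720 to 0.999. Limma called 0 of the 335 assays (0%) in each comparison. At an unadjusted p under 0.05 it found 13 (3.88%) in wt post-SE against wt control, 10 (2.99%) in P2rx7-/- post-SE against P2rx7-/- control, 20 (5.97%) in P2rx7-/- control against wt control and 4 (1.19%) in P2rx7-/- post-SE against wt post-SE. For the effect of status epilepticus averaged over genotypes this was 3.28%, for that of genotype averaged over treatments 4.78%, and for the interaction of both 2.39%, with 0 calls after adjustment. None of the 7 assays was among these. In the 478 assays with a Ct in at least 2 samples of every group, where miR-146a was tested, limma also called 0 throughout (0%), and 3.77%, 2.72%, 4.81% and 0.837% had an unadjusted p under 0.05 in the 4 comparisons, 2.93% and 3.77% in the average effects of status epilepticus and genotype, and 2.30% in the interaction. The methods' t-test, joined to the FC thresholds, called 0 of the 7 assays in each comparison and 0 of the 335 after Benjamini-Hochberg adjustment. By the same rule without that adjustment, 4 of the 335 assays were up and 2 down in wt post-SE against wt control. The counts were 2 and 1 in P2rx7-/- post-SE against P2rx7-/- control and 2 and 5 in P2rx7-/- control against wt control. In P2rx7-/- post-SE against wt post-SE they were 2 and 0. With so few calls in the panel, 0 of 7 does not set these assays apart. In all 28 pairings of an assay and a comparison the samples of both groups overlapped. Over the 335 assays, groups that did not overlap were seen for 5.97% (higher) and 5.07% (lower) in wt post-SE against wt control, for 3.88% and 2.69% in P2rx7-/- post-SE against P2rx7-/- control, for 3.58% and 10.4% in P2rx7-/- control against wt control, and for 2.09% and 3.58% in P2rx7-/- post-SE against wt post-SE.

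**Figure D2:**
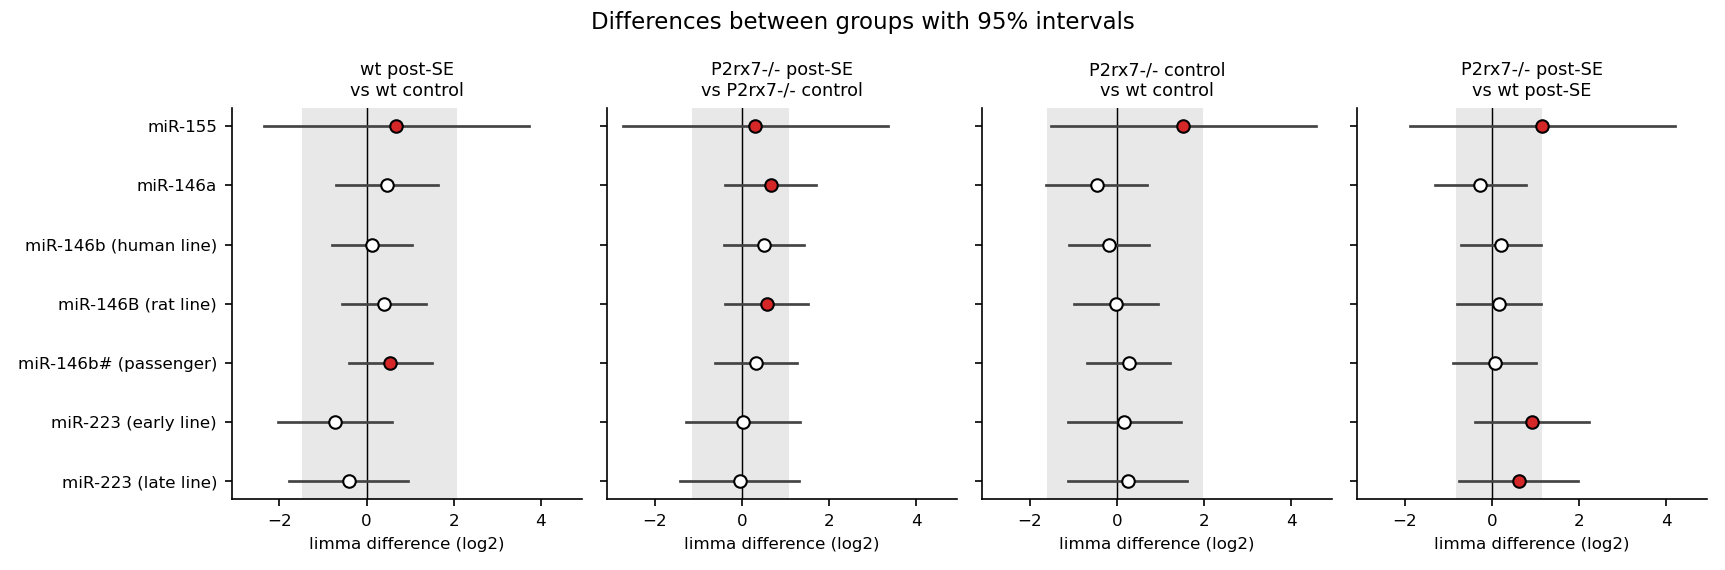
Limma difference (log2 scale, points) with its 95% interval (lines) for the 7 assays in each of the 4 comparisons; red points have an average FC above 1.5, white points lie between the FC thresholds, and the grey band spans the 5th to 95th percentile of the differences of all 335 assays. Every interval includes 0, and the intervals of miR-155 are the widest.

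MiR-155 had an average FC above 1.5 in each of the 4 comparisons, though scaled to snoRNA202 that of wt post-SE against wt control was 1.29, and as geometric mean that of P2rx7-/- post-SE against P2rx7-/- control was 1.24. Its level was 0.27, -0.44 and 0.34 in wt control replicates 1 to 3. In P2rx7-/- controls it was -0.935, 0.36 and 5.31. The third of these samples, at a Ct of 13.8, lay 48.3-fold above the mean of the other 2, and only 4 of the 335 assays, miR-155 included, lay that far from their group in that sample. In wt post-SE mice the levels were -0.54, 0.95 and 1.79, and in P2rx7-/- post-SE mice 1.25, 1.11 and 3.32. All 3 P2rx7-/- post-SE samples thus lay above all 3 wt controls, groups that differ in both genotype and treatment and were not tested against each other. The share of the 335 assays that do not overlap between these groups was not counted. MiR-146a likewise did not overlap between P2rx7-/- controls and wt post-SE mice, which also differ in both. The margin was narrow, with P2rx7-/- controls at 6.06 or lower and wt post-SE mice at 6.08 or higher. The share of assays without overlap between these groups was not counted either. Within each pair of groups compared here the samples overlapped.

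After status epilepticus in wt mice, miR-155 had FCs of 0.664, 1.86 and 3.33, an average of 1.95 ± 1.33 (SD, n = 3), against 1.03 for the wt controls themselves. The limma difference was 0.68 ± 1.37 (SE; adjusted p = 0.934), with a 95% interval of -2.36 to 3.72, that is, 0.195-fold to 13.2-fold. By the FC rule 2 of the 7 assays were up and none down in this comparison, beside 23.3% (up) and 12.5% (down) of the 335 assays. The other was the passenger strand miR-146b#, at 1.504 ± 0.475, next to the threshold. Without wt post-SE replicate 3 the average FC of miR-155 was 1.26, below the threshold, and without wt control replicate 1 it was 2.08.

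In P2rx7-/- mice, the FCs of miR-155 after status epilepticus were 0.795, 0.721 and 3.33, with an average of 1.62 ± 1.49 that stands against 4.62 for the P2rx7-/- controls themselves. The reference is the mean of levels that span 6.24 on the log2 scale, and 2 of the 3 FCs lie below 1. The limma difference was 0.31 ± 1.37 (SE; adjusted p = 0.998). Leaving out P2rx7-/- control replicate 3 gave an average FC of 5.94 and a limma difference of 2.18 ± 0.842 (adjusted p = 0.995). Leaving out P2rx7-/- post-SE replicate 3 gave an average FC of 0.764, without P2rx7-/- control replicate 1 it was 0.678, and without P2rx7-/- control replicate 2 it was 1.06. The direction of this comparison therefore depended on single samples.

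Between the control groups, the average FC of miR-155 in P2rx7-/- mice was 13.3 ± 21.5, from FCs of 0.504, 1.24 and 38.2. The geometric mean of the 3 was 2.88. Without P2rx7-/- control replicate 3 the average was 0.873, so that the call rested on that sample, and without wt control replicate 1 it was 14.6. Limma gave 1.53 ± 1.37 (SE; adjusted p = 0.761), and the exact permutation test gave p = 0.7. MiR-155 was the only 1 of the 7 assays up by the FC rule here and none was down, beside 21.2% (up) and 15.5% (down) of all 335 assays.

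After status epilepticus, P2rx7-/- mice had miR-155 FCs of 1.43, 1.296 and 5.99 relative to wt mice. The average was 2.91 ± 2.67, against 1.22 for the wt post-SE samples themselves, and limma gave 1.16 ± 1.37 (SE; adjusted p = 0.999; exact permutation p = 0.4). All 3 FCs were above 1. Without P2rx7-/- post-SE replicate 3 the average was 1.37, below the threshold, and without wt post-SE replicate 1 it was 1.85. Averaged over treatments, the genotype difference of miR-155 was 1.34 on the log2 scale (95% interval -0.81 to 3.49; adjusted p = 0.930), and 0.42 (adjusted p = 0.913) without P2rx7-/- control replicate 3. The interaction of genotype and treatment was -0.37 (95% interval -4.67 to 3.93), and 1.51 (adjusted p = 0.930) without that sample. Averaged over genotypes, its difference between post-SE and control samples was 0.50 (95% interval -1.66 to 2.65; adjusted p = 0.903), and 1.43 (adjusted p = 0.840) without P2rx7-/- control replicate 3.

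**Figure D3:**
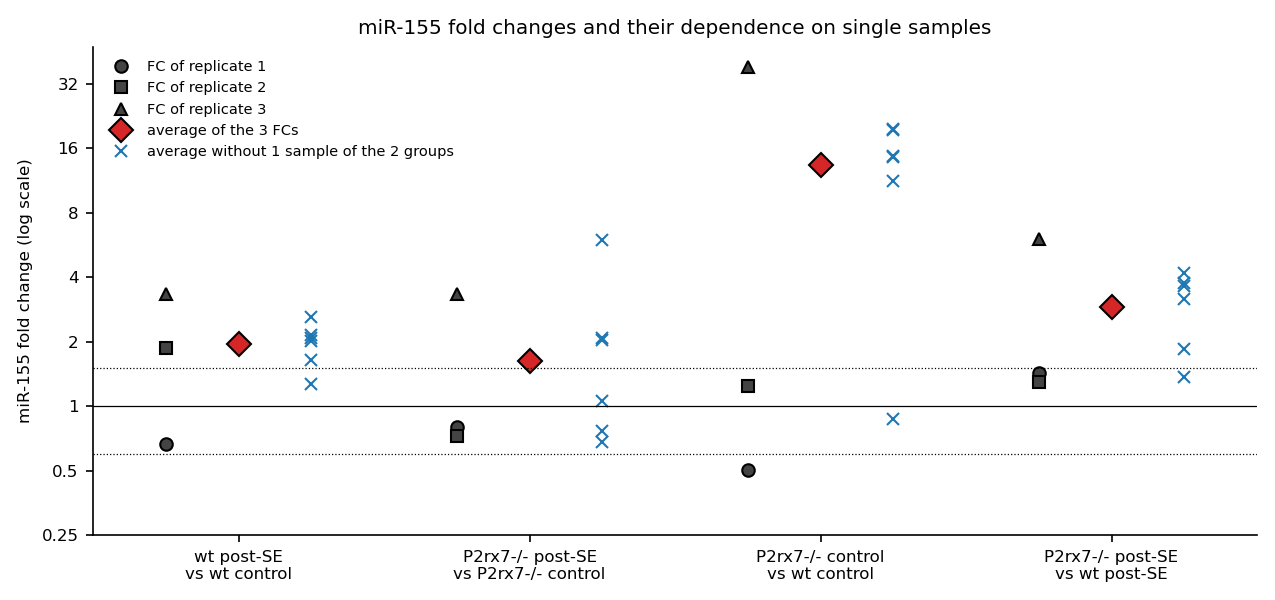
Fold changes of miR-155 on a log axis in the 4 comparisons: each replicate (grey symbols), their average (red diamonds) and the average after leaving out 1 sample of either group (blue crosses), with dotted lines at the FC thresholds of 1.5 and 0.6. Between controls the average of 13.3 falls to 0.873 without P2rx7-/- control replicate 3.

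The miR-146 assays all had higher mean levels after status epilepticus than in controls of the same genotype, by amounts within the spread between samples. In wt mice the direction of all but miR-146a depended on the normalizer. NF-κB activity and the targets of miR-146 were not measured. MiR-146a was at 5.78 and 6.42 in wt control replicates 2 and 3, and at 5.41, 5.41 and 6.06 in P2rx7-/- controls. After status epilepticus it was at 7.26, 6.08 and 6.36 in wt and at 6.66, 5.55 and 6.67 in P2rx7-/- mice. The highest sample was wt post-SE replicate 1. The other wt post-SE samples lay within the range of the wt controls, and P2rx7-/- post-SE replicate 2 lay within that of the P2rx7-/- controls. The average FC was 1.48 ± 0.666 in wt mice, just under the threshold, and 1.68 ± 0.635 in P2rx7-/- mice relative to their own controls, with exact permutation p-values of 0.6 and 0.2. With 1 sample left out, the average in wt mice ran from 1.10 (without wt post-SE replicate 1) to 1.71 (without wt post-SE replicate 2). That in P2rx7-/- mice ran from 1.51 to 2.06. In P2rx7-/- mice 3 of the 7 assays (miR-155, miR-146a and the rat line of miR-146b) were up by the FC rule and none down. MiR-146a is not among the 335 assays, of which 17.9% were up and 7.16% down. Of the 6 that are, 2 were up. Without P2rx7-/- post-SE replicate 3 these 2 fell below the threshold, to 0.764 for miR-155 and 1.07 for the rat line.

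Averaged over genotypes, the difference of miR-146a between post-SE and control samples was 0.57 on the log2 scale (95% interval -0.21 to 1.35; limma adjusted p = 0.856). Permuting samples within genotype gave an exact p of 0.105 over 200 arrangements. P2rx7-/- controls were at 0.740 ± 0.205 of wt controls on average and P2rx7-/- post-SE mice at 0.878 ± 0.331 of wt post-SE mice, both between the thresholds. Scaled to snoRNA202, miR-146a in P2rx7-/- controls was at 0.564 of wt controls and the human line of miR-146b at 0.570, both below 0.6.

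The human line of miR-146b was at 4.07, 4.76 and 5.31 in wt controls and at 4.68, 4.57 and 4.34 in P2rx7-/- controls. In post-SE samples it was at 4.31, 5.01 and 5.20 (wt) and 4.82, 4.64 and 5.66 (P2rx7-/-). The P2rx7-/- controls lay within 0.342 of each other, inside the range of the wt controls. Its average FC after status epilepticus was 1.13 ± 0.332 in wt and 1.49 ± 0.5997 in P2rx7-/- mice. The second lay above 1.5 when scaled to the median Ct (1.60), to every detected assay (1.59) or to snoRNA202 (1.61), and in the deposited fold changes (1.502).

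The rat line read 3.31, 3.84 and 3.57 in wt controls, 3.44, 3.73 and 3.503 in P2rx7-/- controls, 4.36, 3.56 and 3.98 in wt post-SE and 3.87, 3.39 and 5.12 in P2rx7-/- post-SE mice. Its average FC after status epilepticus was 1.35 ± 0.368 in wt and 1.70 ± 1.10 in P2rx7-/- mice. The second passed the FC threshold through P2rx7-/- post-SE replicate 3, and without that sample it was 1.07. Averaged over genotypes, the difference was 0.48 for the rat line (95% interval -0.20 to 1.16; exact permutation p = 0.09) and 0.32 for the human line (95% interval -0.33 to 0.96; exact permutation p = 0.26), where 0.005 is the smallest p allowed.

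The passenger strand miR-146b# was at -5.18, -5.93 and -5.56 in wt controls, at -4.92, -4.81 and -6.12 in P2rx7-/- controls, at -4.52, -5.20 and -5.31 in wt post-SE and at -4.87, -4.59 and -5.40 in P2rx7-/- post-SE mice. Its average difference after status epilepticus was 0.44 (95% interval -0.24 to 1.11; exact permutation p = 0.155).

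Within each genotype, the 4 miR-146 assays gave 8 differences between post-SE and control samples, from 0.12 to 0.67 on the log2 scale, all above 0, but in wt mice the human line turned below 0 when scaled to snoRNA135, to snoRNA202 or as in the deposited fold changes, and with sample weights, and the rat line and miR-146b# did so when scaled to snoRNA202. That last scaling moved the median of all 335 differences between wt post-SE and wt control samples by -0.72, and snoRNA202 in wt control replicate 1 came up at a Ct of 11.6, against 10.1 to 10.5 in the other samples. The medians of all 335 assays were -0.09 in wt and 0.02 in P2rx7-/- mice in the values as reported. Without wt control replicate 1 the human line was at -0.22 in wt mice, the rat line at 0.23, miR-146b# at 0.71 and miR-146a, which has no value there, at 0.44. In P2rx7-/- mice miR-146b# was at -0.081 without P2rx7-/- control replicate 3. The 4 assays are not independent, as 2 read 1 strand and miR-146b# is cut from the same hairpin.

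MiR-223, the neutrophil and monocyte miRNA, did not pass the FC thresholds after status epilepticus in either genotype in the values as reported. In wt mice this depended on the normalizer, as the early line was down at 0.387 when scaled to snoRNA202, at 0.574 with snoRNA135 and at 0.585 in the deposited fold changes, and the late line was down at 0.532 with snoRNA202, with no limma call. The early line read 4.58, 4.995 and 6.47 in wt controls, 5.19, 6.16 and 5.21 in P2rx7-/- controls, 4.65, 5.34 and 3.90 in wt post-SE and 5.46, 4.94 and 6.25 in P2rx7-/- post-SE mice. The late line read 2.62, 1.98 and 3.65 in wt controls, 2.53, 3.16 and 3.31 in P2rx7-/- controls, 1.33, 2.94 and 2.75 in wt post-SE and 2.70, 2.18 and 3.96 in P2rx7-/- post-SE mice. Both lines were highest among wt controls in replicate 3, and among P2rx7-/- post-SE samples in replicate 3. They put a different wt post-SE sample lowest, replicate 3 in the early line and replicate 1 in the late line.

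In wt mice the average FC of miR-223 after status epilepticus was 0.657 ± 0.314 in the early line and 0.839 ± 0.410 in the late line (exact permutation p = 0.5 and 0.7). The early line passed below the threshold of 0.6 without wt control replicate 1 (0.494), wt control replicate 2 (0.581) or wt post-SE replicate 2 (0.494), and stood at 0.970 without wt control replicate 3. Without wt control replicate 1 its limma difference was -1.13 ± 0.616 (SE; adjusted p = 1.00). In P2rx7-/- mice the averages relative to their own controls were 1.09 ± 0.507 and 1.11 ± 0.736. P2rx7-/- controls were at 1.19 ± 0.494 and 1.22 ± 0.319 of wt controls. Averaged over genotypes, the differences after status epilepticus were -0.35 and -0.23 (95% intervals -1.27 to 0.57 and -1.19 to 0.73).

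After status epilepticus P2rx7-/- mice had more miR-223 than wt mice on average in both lines, at 2.03 ± 0.943 (FCs 1.78, 1.24 and 3.07) and 1.75 ± 1.16 (FCs 1.29, 0.895 and 3.07). The limma differences were 0.92 ± 0.585 and 0.61 ± 0.612 (SE; adjusted p = 0.999 in both; exact permutation p = 0.2 and 0.6), with 95% intervals of -0.38 to 2.22 and -0.75 to 1.97. Together with miR-155, 3 of the 7 assays were up by the FC rule and none down, beside 17% (up) and 4.48% (down) of all 335 assays. Both lines of miR-223 read 1 strand, so that the 3 assays are not independent. All 3 had their highest FC in P2rx7-/- post-SE replicate 3. Without that sample the averages of the miR-223 lines were 1.52 and 1.10, and without wt post-SE replicate 1 that of the late line was 1.22. The interaction of genotype and treatment was 0.75 (95% interval -1.09 to 2.59) and 0.36 (95% interval -1.57 to 2.28).

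P2rx7-/- post-SE replicate 3 held the highest level among the 12 samples for 3 of the 7 assays and was among the highest 2 for 6 of them. These 6 include both lines of miR-146b and both lines of miR-223, which are not independent. No other sample was among the highest 2 for more than 3 assays. The exception in that sample was the passenger strand miR-146b#, which was lowest there within its group. This sample was close to the others over the panel, with 3 of the 335 assays more than 2 cycles from their median. The share of the 335 assays that were highest, or among the highest 2, in it was not counted. The pattern can therefore not be called particular to these miRNAs.

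The repeated assay lines are the only measure here of how far 1 miRNA differs between readings of a sample. The late line of miR-223 came up 2.50 cycles after the early line on average, with a per-sample difference of 1.15 (wt post-SE replicate 3) to 3.32 cycles (wt post-SE replicate 1) and an SD of 0.602. The rat line of miR-146b came up 0.976 cycles after the human line, from -0.0485 (wt post-SE replicate 1) to 1.74 cycles (wt control replicate 3), with an SD of 0.462. The SD of a difference holds the error of both lines. The within-group SDs of the same lines, 0.481 to 0.790, are of 1 line each, so that they are not directly comparable with it. Of the 17 pairs of lines in the panel that share a miRNA name and were complete in all samples, these were at places 2 and 3 by the SD of their difference, after miR-200b, and the other 15 pairs had SDs of 0.352 to 3.52 with a median of 0.934.

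**Figure D4:**
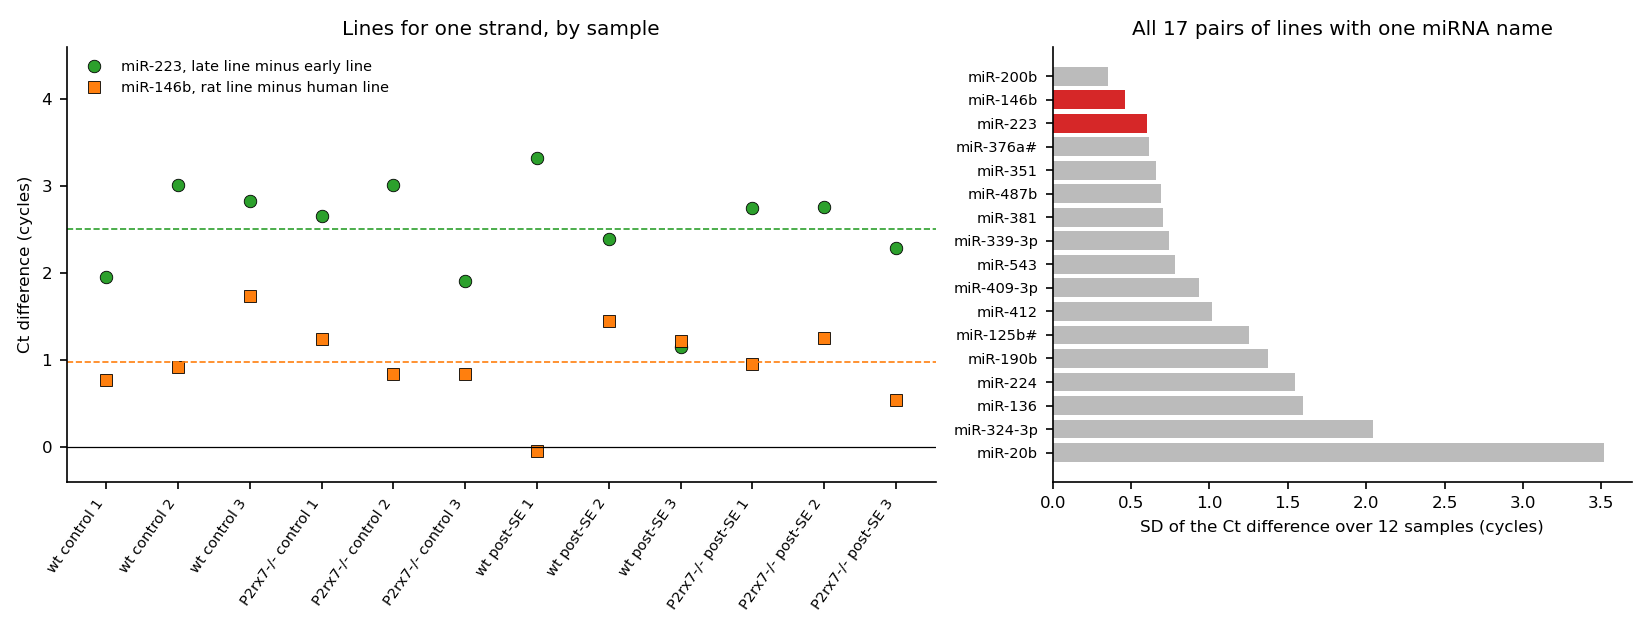
Left, difference in Ct between the paired lines of miR-223 (circles) and miR-146b (squares) in each sample, with dashed lines at the means of 2.50 and 0.976 cycles. Right, SD of that difference over the 12 samples for all 17 pairs of lines with 1 miRNA name, with these pairs in red; both SDs are below the median of 0.934 of the other 15.

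Over the 12 samples the levels of the miR-223 lines had a Pearson r of 0.668 (permutation p = 0.0174) and a Spearman rho of 0.706 (permutation p = 0.0131). After adjustment over the 4 relations computed these became 0.0696 and 0.0522, and r was 0.779 after leaving out the 2 samples farthest from the median of the early line, wt control replicate 3 and wt post-SE replicate 3. For the lines of miR-146b r was 0.544 and rho 0.469 (permutation p = 0.0681 and 0.127; adjusted 0.136 and 0.247). Without wt control replicate 1 and P2rx7-/- post-SE replicate 3 r was -0.155, so that the relation of these lines rested on those samples. Within groups, as deviations from the group means, r was 0.602 for miR-223 and 0.441 for miR-146b. The guide and the passenger strand of miR-146b had an r of -0.209 (rho -0.413; permutation p = 0.516 and 0.185) for the human and of 0.0165 (rho -0.0350; permutation p = 0.960 and 0.921) for the rat line.

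Paired lines also gave FCs on different sides of the threshold. In P2rx7-/- mice after status epilepticus relative to their controls the rat line of miR-146b was up (1.70) and the human line was not (1.49), a gap smaller than the SD of either, and both were up under the 4 settings in which the human line passed 1.5. In the other comparisons both lines of a miRNA were on the same side.

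The assays whose level was most like that of each of these miRNAs over the samples are given as a description. MiR-155 was closest to miR-424 (r = 0.815), miR-29b# (0.814) and the mouse line of miR-487b (0.784). MiR-146a was closest to miR-16 (0.818), miR-93# (0.787) and miR-186 (0.776) over 11 samples. The human line of miR-146b was closest to miR-503# (0.889), miR-425 (0.778) and miR-339-3p (0.743), and the rat line to miR-541 (0.807), miR-7a# (0.775) and miR-93# (0.765). For the early line of miR-223 the closest assay of all was the late line (0.668), before miR-136 (0.626) and miR-425 (0.610). The late line was in turn closer to miR-31 (0.728), miR-424 (0.699) and miR-331-5p (0.698), and the passenger strand miR-146b# was closest to miR-2182 (0.777), miR-2138 (0.752) and miR-706 (0.606). No line of miR-146b had the other among its 3 closest. Between assays of different strands of the list, r ran from -0.510 (miR-155 and miR-146b#) to 0.638 (miR-146a and the rat line of miR-146b, over 11 samples).

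Other miRNAs of blood and immune cells were set beside these. Of the 8 assays of lymphoid and myeloid miRNAs (miR-142, miR-147, miR-150, miR-342 and miR-511), 4 were detected in all samples and none passed limma. Their median difference was 0.32 in wt and 0.12 in P2rx7-/- mice after status epilepticus, 0.16 between controls and -0.11 between the genotypes after status epilepticus, against -0.09, 0.02, -0.02 and -0.01 over all 335 assays. MiR-150, a lymphocyte miRNA, had an average FC of 34.9 ± 16.4 in wt post-SE mice (limma adjusted p = 0.664), but its level was -6.76 in wt control replicate 1 and 6.38 to 7.77 in the other wt samples, and without that sample the average FC was 1.62 ± 0.714. MiR-342-5p was at 0.791 ± 0.153 in P2rx7-/- relative to wt post-SE mice (adjusted p = 0.999).

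Of the red blood cell miRNAs, 2 of 3 assays were detected in all samples, and both were down by the FC rule in wt post-SE mice, where 12.5% of the 335 assays were, with no limma call. MiR-451 had levels of 3.43, 1.44 and 0.43 in wt controls and 0.10, 0.12 and 0.17 in wt post-SE mice, an average FC of 0.321 ± 0.00787 (adjusted p = 0.664). MiR-486 had an average FC of 0.501 ± 0.0528 (adjusted p = 0.664). Without wt control replicate 1 these were 0.562 for miR-451 and 0.675 for miR-486, the second no longer below the threshold. Their summed linear level was 5.31 to 24.7 in wt control, 6.58 to 17.8 in P2rx7-/- control, 4.35 to 5.13 in wt post-SE and 5.24 to 9.40 in P2rx7-/- post-SE samples, highest in wt control replicate 1. The leukocyte markers miR-142-3p, miR-150 and the lines of miR-223, 4 of 6 assays detected in all samples, added up to 32.1 to 192 in wt control, 58.9 to 152 in P2rx7-/- control, 117 to 254 in wt post-SE and 129 to 236 in P2rx7-/- post-SE samples. The lowest of these sums belonged to wt control replicate 1, and miR-142-5p and miR-150# lacked a Ct in some sample. The part of blood and blood cells in the levels of miR-223, miR-155 and miR-146 was not tested.

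Of the 16 assays of other miRNAs tied to Toll-like receptor and NF-κB signaling (miR-21, miR-27, miR-125, miR-132, miR-181 and miR-187), 13 were detected in all samples and none passed limma. By the FC rule 4 were up and 1 down in wt post-SE mice, beside 23.3% and 12.5% of the 335 assays, and 5 up and 1 down in P2rx7-/- post-SE against P2rx7-/- control mice, beside 17.9% and 7.16%. Between controls 3 were up and 3 down, beside 21.2% and 15.5%, and between the genotypes after status epilepticus 3 were up and 1 down, beside 17% and 4.48%. The passenger strand miR-21# was at -6.12, -6.69 and -5.64 in wt controls and at -4.04, -3.57 and -3.68 in wt post-SE mice, groups that did not overlap, with an average FC of 5.28 ± 0.857 (limma adjusted p = 0.316), and of 5.26 without wt control replicate 1. Averaged over genotypes its difference was 2.17 (adjusted p = 0.0521), and it passed limma at 2.19 (adjusted p = 0.0404) when samples were scaled to the median Ct. Without P2rx7-/- control replicate 2 it passed limma in wt post-SE against wt control mice at 2.39 (adjusted p = 0.0150), in P2rx7-/- post-SE against P2rx7-/- control mice at 2.72 (adjusted p = 0.0130, against 1.95 and 0.998 with all samples) and in the average over genotypes at 2.55 (adjusted p = 0.000803). MiR-27b# was at 1.75 ± 0.0274 in P2rx7-/- relative to wt post-SE mice (adjusted p = 0.999).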

How the data were processed

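The authors deposited the Ct values of TaqMan OpenArray panels (1 μg total RNA per sample, pre-amplified), used here as a score that has not been normalized, listed between 10.1 and 28.0. They also deposited fold changes, a ratio relative to wt control replicate 1. Set against the Ct values, these were scaled to the mean of every assay line with a Ct, and P2rx7-/- control replicate 2 was off by 0.161 on the log2 scale. They were used only as an alternative. The software that called Ct is not given in the sources used here.

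Levels, FCs and the limma fit (all 12 samples, 1 coefficient per group, Benjamini-Hochberg adjustment, called below 0.05) were computed as described in the results, with Python 3.11.15 and R 4.3.3 (limma 3.58.1, scipy 1.17.1, pandas 2.3.3, numpy 2.4.6, statsmodels 0.14.6, matplotlib 3.10.9). The log2 levels were computed from the deposited Ct values. The fit was run on simulated data with independent noise, which checked only that a known shift was recovered on average. It does not show how many true differences the fit would miss in these data. MiR-146a was fitted without imputation over 478 assays. Each group enters 2 of the 4 comparisons, so that these share samples. Named were all assays of the chosen miRNAs, the 3 assays most alike to each, and at most 2 per context list by the lowest limma p. The members and lists were chosen with earlier results of these data known. Alternatives were other normalizers (the median Ct, every detected assay, snoRNA135, snoRNA202), the deposited fold changes, a Ct limit of 26, a Ct in at least 2 samples per group, sample weights, the replicate number as a block, geometric means, the methods' t-test as a further condition, and leaving out each sample, with the common assays chosen anew.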

Additional observations from a re-analysis of the deposited data

How the results depend on the processing

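No alternative brought any of the 7 assays past limma. Their lowest adjusted p in any alternative was 0.265. What varied were the signs of differences near 0 and the FC calls. The cause of each turned sign was not tested. The difference of the normalizers shows in the median of all 335 assays, which snoRNA202 moved by -0.72 in wt post-SE against wt control, -0.64 in P2rx7-/- against wt control and 0.83 in the interaction, and snoRNA135 by -0.30 in the first of these and 0.30 in P2rx7-/- against wt post-SE. The largest shift by another normalizer was 0.14.

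Scaled to the median Ct, the late miR-223 line at 0.0091 turned sign in P2rx7-/- post-SE against P2rx7-/- control. The rat miR-146b line at 0.057 did so in P2rx7-/- against wt control. Scaled to the mean of every detected assay, the human miR-146b line at -0.042 turned sign in the average over treatments. Scaled to snoRNA135, the human miR-146b line at -0.18 turned sign in wt post-SE against wt control. The early miR-223 line at -0.019 did so in P2rx7-/- post-SE against P2rx7-/- control. MiR-146b# at 0.044 did so in the interaction. The rat miR-146b line at 0.022 did so in P2rx7-/- against wt control. MiR-146a at 0.023 did so in P2rx7-/- against wt post-SE. Scaled to snoRNA202, the human miR-146b line at -0.60, miR-146b# at -0.18, miR-155 at -0.045 and the rat miR-146b line at -0.33 turned sign in wt post-SE against wt control. The human miR-146b line at -0.22, miR-146b# at -0.061 and the rat miR-146b line at -0.15 did so in the average over treatments. The early miR-223 line at -0.47, the late miR-223 line at -0.39 and miR-146b# at -0.37 did so in P2rx7-/- against wt control. The late miR-223 line at 0.052 did so in P2rx7-/- post-SE against P2rx7-/- control. MiR-146b# at 0.61 and miR-155 at 0.46 did so in the interaction. In the deposited fold changes, the human miR-146b line at -0.0048 turned sign in wt post-SE against wt control. The human miR-146b line at -0.062 did so in the average over treatments. The early miR-223 line at -0.0041 did so in P2rx7-/- post-SE against P2rx7-/- control. With a Ct limit of 26, the rat miR-146b line at 0.015 turned sign in P2rx7-/- against wt control. With sample weights, the human miR-146b line at -0.035 turned sign in wt post-SE against wt control. The human miR-146b line at -0.024 did so in P2rx7-/- against wt post-SE. The human miR-146b line at -0.22 did so in the average over treatments. The early miR-223 line at -0.25 did so in P2rx7-/- post-SE against P2rx7-/- control. The early miR-223 line at -0.0040 did so in P2rx7-/- against wt control. MiR-155 at 0.28 did so in the interaction.

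Scaled to snoRNA202, some average FCs moved by more than the SD of their 3 FCs, a measure without the spread of the reference group. In wt post-SE against wt control these were the human miR-146b line at 0.711, miR-146b# at 0.892 and the rat miR-146b line at 0.816. In P2rx7-/- against wt control they were the human miR-146b line at 0.570, the late miR-223 line at 0.786 and the rat miR-146b line at 0.643. The number of the 7 assays past the FC thresholds in wt post-SE against wt control was 2, and it was 1 when scaled to the median Ct or the mean of every detected assay, with a Ct limit of 26 or with geometric means, where miR-146b# was lost. It stayed 2 with snoRNA135, snoRNA202 and the deposited fold changes, but not with the same assays. With snoRNA202 miR-155 (1.29) and miR-146b# (0.892) were lost and both miR-223 lines were down (0.387 and 0.532). With snoRNA135 and the deposited fold changes miR-155 stayed up and the early miR-223 line was down (0.574 and 0.585) in place of miR-146b#. In P2rx7-/- post-SE against P2rx7-/- control the number was 3, it was 1 (miR-146a) with geometric means, and it was 4, with the human miR-146b line, for the median Ct, every detected assay, snoRNA202 and the deposited fold changes. In P2rx7-/- against wt control it was 1, and 3 when scaled to snoRNA202, with miR-146a and the human miR-146b line down. In P2rx7-/- against wt post-SE it was 3, and 4, with the rat miR-146b line (1.54), for snoRNA135. With the methods' t-test as a further condition it was 0 in each comparison. For the other alternatives the share of all 335 assays past the thresholds was not counted, so that these counts cannot be set beside the panel. Scaling to snoRNA202 moved the median of all 335 assays by -0.72 in wt post-SE against wt control and by -0.64 in P2rx7-/- against wt control. Limma called 2 assays in the average effect of status epilepticus, miR-21# and miR-685, when scaled to the median Ct or with a Ct limit of 26, against 0 with the settings reported (adjusted p = 0.0521 for both). MiR-685 was named after its values were seen.

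Leaving out 1 sample at a time moved limma differences across 0 as follows. The human miR-146b line ran from -0.22 to 0.42 in wt post-SE against wt control and -0.49 to 0.11 in P2rx7-/- against wt control. It ran from -0.10 to 0.42 in P2rx7-/- against wt post-SE and -0.15 to 0.16 in the average over treatments. The early miR-223 line ran from -0.31 to 0.35 in P2rx7-/- post-SE against P2rx7-/- control and -0.20 to 0.74 in P2rx7-/- against wt control. The late miR-223 line ran from -0.80 to 0.10 in wt post-SE against wt control and -0.55 to 0.34 in P2rx7-/- post-SE against P2rx7-/- control. It ran from -0.14 to 0.70 in P2rx7-/- against wt control and -0.15 to 0.75 in the interaction. It ran from -0.48 to 0.024 in the average over genotypes. MiR-146b# ran from -0.081 to 0.57 in P2rx7-/- post-SE against P2rx7-/- control and -0.11 to 0.29 in P2rx7-/- against wt post-SE. It ran from -0.62 to 0.026 in the interaction. MiR-155 ran from -0.95 to 2.18 in P2rx7-/- post-SE against P2rx7-/- control and -0.33 to 2.79 in P2rx7-/- against wt control. It ran from -1.62 to 1.51 in the interaction and -0.14 to 1.43 in the average over genotypes. The rat miR-146b line ran from -0.14 to 0.12 in P2rx7-/- against wt control and -0.33 to 0.55 in P2rx7-/- against wt post-SE. It ran from -0.30 to 0.53 in the interaction and -0.18 to 0.28 in the average over treatments. MiR-146a ran from -0.51 to 0.11 in P2rx7-/- against wt post-SE and -0.032 to 0.56 in the interaction. Some average FCs moved by more than the SD of their 3 FCs or turned from up to below 1. In P2rx7-/- post-SE against P2rx7-/- control this was miR-155, from 0.678 to 5.94. In P2rx7-/- against wt control the human miR-146b line ran from 0.714 to 1.09 and the early miR-223 line from 0.902 to 1.76. There the late miR-223 line ran from 0.932 to 1.67 and miR-155 from 0.873 to 19.7. Between 1 and 5 of the 7 assays passed the FC thresholds in wt post-SE against wt control, 1 to 4 in P2rx7-/- post-SE against P2rx7-/- control, 1 to 3 in P2rx7-/- against wt control and 1 to 4 in P2rx7-/- against wt post-SE. The share of all assays past the thresholds was not counted with a sample left out. Limma called 0 to 1 assays in wt post-SE against wt control, in P2rx7-/- post-SE against P2rx7-/- control and in the average effect of status epilepticus. The called assay was miR-21# in all 3 without P2rx7-/- control replicate 2, and miR-685 in the last (2.75, adjusted p = 0.0240) without wt control replicate 2. Without wt control replicate 2 or 3, miR-146a was left with 1 wt control value and could not be fitted.

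The labels number the replicates 1 to 3 in each group, and nothing in them ties a number to a shared litter, batch or day. Of 18 same-numbered pairs, 4 had a correlation of deviations above 0.1 (range -0.227 to 0.277), too few to treat the numbers as pairs, and 6 of 12 samples correlated best with their own number. Of these 4 pairs, 3 (0.251 to 0.277) join the samples numbered 3 of all groups but wt control, and miR-155 was highest in replicate 3 of all 4 groups (0.34, 5.31, 1.79 and 3.32, in wt control beside 0.27 in replicate 1). Whether these samples share a source was not tested. With the replicate number as a block, limma called 0 assays in any comparison, as without it. Each number occurs once per group, so that the block cannot change the differences of an assay with a Ct in all samples, only their errors. The directions of miR-146a, which lacks a value, did not change. With the block the difference of miR-155 between control groups was 1.53 ± 1.00 (SE; adjusted p = 0.678).

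Each assay was read once per sample, RNA degradation was not assessed, and pools of different mice were the only replicates. The width of the intervals given with the results shows what 3 samples per group leave undecided.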
